A study of Rattus norvegicus with 8 samples.

Results

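Adipocytes grown from the fat cell precursors of control-diet rats were compared with the undifferentiated precursors of control-diet rats. The comparison used 4 of the 8 libraries of the series, chosen by their labels alone: ASC_C replicates 1 and 2, which are adipose-derived stem cells, and AD_C replicates 1 and 2, which are the differentiated cells. All samples came from inguinal (subcutaneous) adipose tissue of wild-type Wistar rats. The control animals (C) and those on a high-fat sucrose diet (HFS) ate their diet for 6 months. Precursors were released with collagenase, grown to confluence and turned into adipocytes by 3 days in 5.0 μM dexamethasone, 0.5 mM IBMX and insulin (10.0 μg/mL), followed by 7 days in insulin alone. The labels attach this schedule to all 8 samples and also call all of them mesenchymal stem cells, so the stage of a library was read from its title. AD_C and ASC_C thus differ in hormones, in time in culture and in differentiation together. Nothing in the labels tells if the replicates of a group were separate animals, pools or cultures.

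White adipocytes arise when precursors leave the cell cycle and the transcription factors C/EBPβ and C/EBPδ, induced by cAMP and glucocorticoid, switch on PPARγ and C/EBPα. PPARγ and C/EBPα then sustain each other and the genes of lipid synthesis, lipid storage, insulin-stimulated glucose uptake and adipokine secretion. Dexamethasone activates the glucocorticoid receptor, IBMX raises cAMP by blocking phosphodiesterases, and insulin drives fatty acid synthesis through SREBP-1c and ChREBP.

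Levels are given in ppm, where 1 ppm is 0.0001% of a library's reads in the 14018 genes that the ASC table and the AD table both list. The ASC_C libraries held 3339269 and 7290961 reads and the AD_C libraries 76083827 and 118464336, so 3 reads, the floor used for ratios, were 0.898 and 0.412 ppm in ASC_C and 0.0395 and 0.0254 ppm in AD_C. A gene was called higher in AD_C when its lowest AD_C library was at least 2-fold above its highest ASC_C library, and lower in the mirrored case, with a mean of at least 5 ppm over the 4 libraries. This is a description without a test: each stage has a table of its own, so stage, table and depth cannot be told apart, and a permutation test of 2 against 2 libraries cannot go below p = 0.333. In a bulk culture, a level also cannot separate the share of cells that differentiated from the RNA per cell.

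Of 10570 genes past the level filter, 1100 were higher in AD_C (10.4%), 1342 were lower (12.7%) and 8128 were neither. The libraries of the groups did not overlap for 7736 genes (73.2%), and the median log2 ratio of AD_C over ASC_C was -0.04. Scaling by the median of ratios or without the 100 genes with most reads placed that median at 0.09 and 0.11 and gave 1346 higher with 1125 lower and 1368 higher with 1118 lower. Without ASC_C replicate 1 there were 1858 higher genes. Ranks of genes by reads, which do not depend on scaling, had Spearman correlations of 0.940 between the ASC_C libraries, 0.966 between the AD_C libraries and 0.717 to 0.747 between the stages, over the same 10570 genes. Of the 100 genes with the most reads in each stage, 37 were the same, and of the 500 with the most reads 292 were the same (58.4%).

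The genes with the most reads were collagen and cytoskeleton genes in ASC_C and mitochondrial, lipid synthesis and collagen genes in AD_C. Col1a1, a chain of type I collagen, had rank 1 of 14018 genes in both ASC_C libraries at 8661 and 11862 ppm. It ranked 56 and 9 in AD_C at 1655 and 7569 ppm, so the AD_C libraries differed widely from each other and the gene passed in neither direction. Scd, the stearoyl-CoA desaturase that makes monounsaturated fatty acids, went the other way: it ranked 498 and 138 in ASC_C and 2 in both AD_C libraries. Col3a1, another fibrillar collagen, was among the leading genes of both stages, at 7626 and 9058 ppm in ASC_C and 6226 and 11001 ppm in AD_C.

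**Figure D1:**
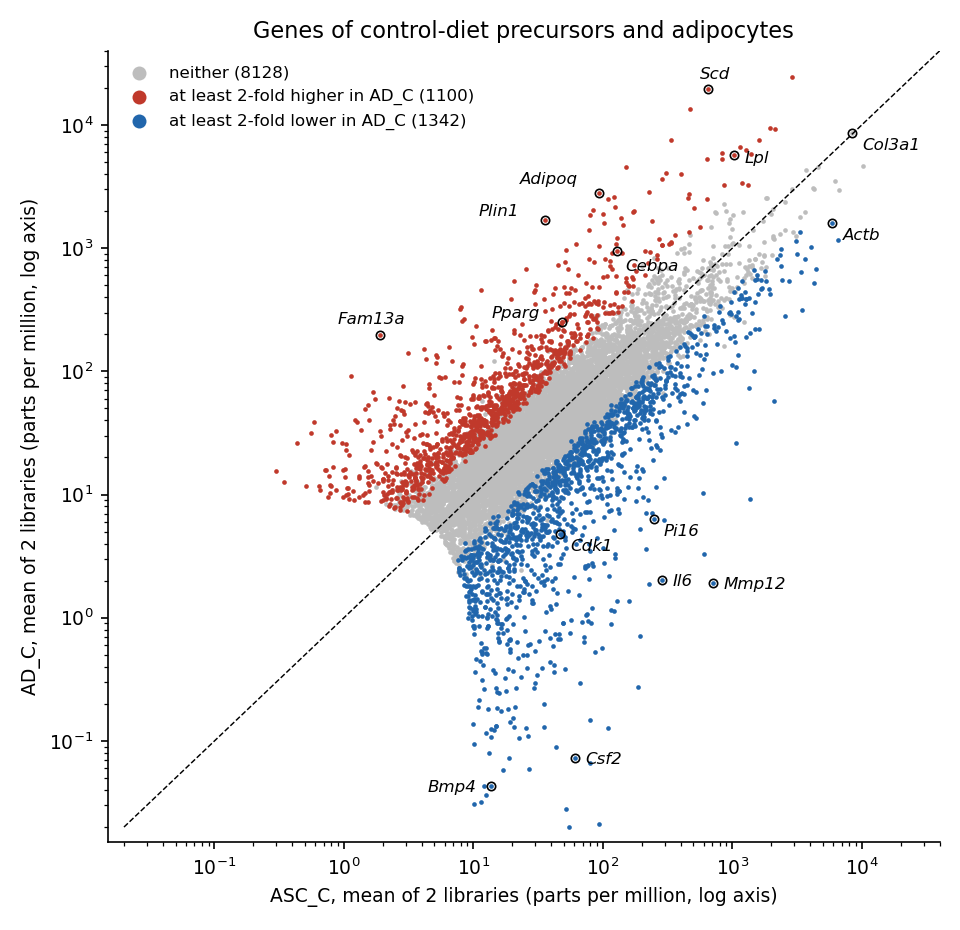
Mean level of each gene past the filter in ASC_C (x axis) and AD_C (y axis), in ppm on log axes, each the mean of 2 libraries, with the dashed line at equal levels. The 1100 genes called higher in AD_C are red, the 1342 called lower are blue and the 8128 others are grey. Scd and Adipoq lie far above the line and Il6, Mmp12 and Csf2 far below it.

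Among the regulators of adipogenesis, 22 of the 23 genes in both tables passed the filter: 10 were higher, 2 lower and 10 neither, with a median log2 ratio of 0.49 against -0.04 for all genes (-0.20 on the deposited values without the inversion). Pparg, the nuclear receptor that commands the fat cell programme, was at 38.3 and 59.0 ppm in ASC_C and at 214 and 288 ppm in AD_C. The AD_C mean was 5.15-fold higher, and single library pairs gave 3.62- to 7.51-fold. Cebpa, its partner in terminal differentiation, was at 124 and 131 ppm in ASC_C and 1031 and 878 ppm in AD_C, 7.47-fold higher. Cebpa thus stood above Pparg by reads at both stages, though levels of different genes are not corrected for length.

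The early factor Cebpb was lower, at 897 and 1159 ppm in ASC_C and 233 and 156 ppm in AD_C (5.29-fold). Its relative Cebpd, at 335 and 151 ppm and then 123 and 158 ppm, overlapped between the stages and was neither. Egr2, an early growth response gene that acts before the C/EBPs, was the other lower member (4.96-fold).

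The lipogenic factors were higher by larger ratios than Pparg. Srebf1, which encodes SREBP-1, was at 57.2 and 50.4 ppm in ASC_C and 496 and 863 ppm in AD_C (12.6-fold). Mlxipl, which encodes the glucose-responsive factor ChREBP, had 3 and 10 reads in the ASC_C libraries (0.898 and 1.37 ppm) and 72.0 and 111 ppm in AD_C. With so few precursor reads the size of its ratio is imprecise, but the lowest AD_C library was far above both precursor libraries. Zbtb16, a zinc finger gene induced by glucocorticoid, was 19.6-fold higher, Zfp423, a marker of committed preadipocytes, 8.36-fold, Klf15 6.53-fold, the retinoid receptor Rxra 5.94-fold and Nr1h3, the liver X receptor of fat, 2.54-fold. Creb1 was also higher. Klf9, Klf5, Klf4, Ebf1, Ebf2, Stat5a, Stat5b, Zfp467 and the glucocorticoid receptor Nr3c1 were neither.

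C/EBP proteins bind an inverted repeat of which TTGCNNAA keeps the outer letters. The 250 bases before the start site in RefSeq (build GRCr8) were searched for it on both strands, by gene symbol. It was present before 2525 of 27457 start sites (9.2%), 575 of 7854 genes past the filter (7.32%), 61 of 763 genes higher in AD_C (7.99%) and 79 of 964 genes lower (8.20%). It stood before 4 of 15 adipokine genes (26.7%), 2 of 14 lipid droplet genes and 1 of 11 triglyceride synthesis genes, but also before 6 of 18 progenitor markers and 4 of 17 inflammatory genes, lists with many lower members. Below, 4 of these stretches are shown because their genes were higher in AD_C, or, for Lep, because the leptin gene is a textbook target of C/EBPα. The capitals mark the match.
Plin1 (chr1:143086193-143086250, minus strand, 77 to 70 bases before the start): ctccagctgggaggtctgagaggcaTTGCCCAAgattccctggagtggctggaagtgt
Cidec (chr4:148137292-148137349, minus strand, 209 to 202 bases before the start): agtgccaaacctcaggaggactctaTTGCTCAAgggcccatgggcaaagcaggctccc
Gpam (chr1:264175968-264176025, minus strand, 89 to 82 bases before the start): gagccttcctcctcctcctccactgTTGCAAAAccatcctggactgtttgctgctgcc
Lep (chr4:58626444-58626501, plus strand, 69 to 62 bases before the start): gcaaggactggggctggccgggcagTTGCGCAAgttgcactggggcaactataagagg
A match is a run of letters, not a measured site. The DR1 element of PPARγ with RXR, AGGTCA repeated with 1 base between, was before 15 of all start sites and 1 of the 763 genes higher in AD_C, and the sterol element TCACNCCAC before 268 of all (0.976%), 8 of those higher (1.05%) and none of 13 fatty acid synthesis genes. The glucocorticoid receptor element, GNACA and TGTNC with 3 bases between, was before 0.364% of all start sites and 2 of 18 genes of the glucocorticoid and cAMP list, Map3k6 and Fam107a, neither of which was called higher.

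Fatty acid synthesis had the most reads of the lipid lists in AD_C, whereas in ASC_C fatty acid uptake had more. Its 17 genes in both tables, all past the filter, took 0.346 ± 0.0474% of reads in ASC_C and 4.29 ± 0.644% in AD_C (SD, n = 2). Of them 12 were higher and none lower, with a median log2 ratio of 2.24. Scd was at 320 and 985 ppm in ASC_C and 18978 and 20198 ppm in AD_C (30.0-fold). Acaca, the acetyl-CoA carboxylase that commits carbon to fatty acids, was at 71.0 and 89.3 ppm and then 1744 and 1950 ppm (23.0-fold). Fasn, the fatty acid synthase, was at 304 and 363 ppm and then 5813 and 9341 ppm (22.7-fold). Acly, which makes cytosolic acetyl-CoA from citrate, was 12.7-fold higher, the malic enzyme Me1 10.9-fold and the lipogenic regulator Thrsp 21.3-fold. The 5 members that were neither included the elongases Elovl5 and Elovl6 and the desaturases Fads1 and Fads2 of polyunsaturated fatty acid synthesis.

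Triglyceride assembly followed the same direction. Of 16 genes past the filter, 12 were higher and none lower, with a median log2 ratio of 3.29, the highest of the pathway lists. Dgat2, the enzyme of the last acylation step, was at 53.9 and 70.7 ppm in ASC_C and 970 and 1190 ppm in AD_C (17.3-fold), while Dgat1 was 3.18-fold higher. Gpd1, which supplies glycerol 3-phosphate from glycolysis, was 22.7-fold higher at 1299 and 3707 ppm, Agpat2 18.8-fold, Lpin1 22.1-fold, Acsl1 17.5-fold and Gpam 11.3-fold. The paralogues Gpat3, Gpat4, Agpat1 and Agpat3 were neither. Pck1, the glyceroneogenic enzyme of mature fat, was below the filter at 0.599 and 2.88 ppm in ASC_C and 0.816 and 1.30 ppm in AD_C. The glycerol kinase gene Gk and the glycerol channel gene Aqp7 were 7.62- and 12.6-fold higher.

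Of 13 lipid droplet genes past the filter, 8 were higher and 1 lower. Plin1, the perilipin that coats the large droplets of fat cells and gates lipolysis, was at 28.2 and 42.9 ppm in ASC_C and 1296 and 2079 ppm in AD_C (47.5-fold). Plin4 was 41.0-fold higher, at 6.59 and 9.19 ppm and then 294 and 353 ppm. The lower member was Plin2, the perilipin of small droplets in most cell types, at 782 and 770 ppm in ASC_C and 237 and 220 ppm in AD_C (3.40-fold). Perilipins 1 and 2 thus exchanged order between the stages without overlap. The droplet fusion genes Cidec and Cidea were 15.5- and 8.17-fold higher, Fitm2 4.03-fold and the lipase inhibitor gene G0s2 6.30-fold. Plin5 and Fitm1 were listed in the AD table only and Plin3 and Hilpda were not analysed here.

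The machinery of lipolysis was higher together with that of storage: of 17 genes past the filter 10 were higher and 1 lower, with a median log2 ratio of 2.33. Lipe, hormone-sensitive lipase, was at 13.2 and 47.6 ppm and then 466 and 538 ppm (16.5-fold). Mgll was 10.4-fold higher and Abhd5, the activator of the first lipase, 3.38-fold. The first lipase itself, Pnpla2, was not analysed here. The restraints on lipolysis were higher as well. Adora1, the adenosine A1 receptor, was at 3.89 and 12.2 ppm in ASC_C and 382 and 285 ppm in AD_C (41.4-fold), and Pde3b, the phosphodiesterase through which insulin lowers cAMP, was 19.2-fold higher. Adrb3, the β3-adrenergic receptor, had 2 and 7 reads in ASC_C and reached 6.49 and 17.4 ppm in AD_C. The lysosomal lipase Lipa was the lower member (3.43-fold).

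Fatty acid uptake was less uniform, with 4 of 12 genes higher, 1 lower and a median log2 ratio of 0.21 (-0.12 without AD_C replicate 2). Lpl, which frees fatty acids from lipoproteins, was already at 1013 and 1042 ppm in ASC_C and stood at 5769 and 5629 ppm in AD_C (5.55-fold). Fabp4, the fat cell fatty acid carrier, was at 605 and 2635 ppm in ASC_C and 6344 and 8874 ppm in AD_C (4.70-fold). The ASC_C libraries lay close together for Lpl and far apart for Fabp4, with replicate 2 the higher one. Fabp3, the heart form, was lower (16.3-fold), and Fabp5, the epidermal form, was neither.

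All 25 genes of insulin signalling and glucose transport passed the filter, 12 were higher and none lower, with a median log2 ratio of 1.36. Slc2a4, the insulin-responsive transporter GLUT4, was at 5.69 and 17.2 ppm in ASC_C and 89.1 and 134 ppm in AD_C (9.75-fold). The insulin receptor Insr was at 4.19 and 5.49 ppm and then 39.8 and 54.6 ppm (9.75-fold). Genes that carry GLUT4 vesicles or the signal to them were higher too, with Trarg1 at 10.9-fold, Tbc1d4 at 11.6-fold and Irs1 at 6.48-fold. The basal transporter Slc2a1, at 179 and 142 ppm and then 108 and 90.5 ppm, and the hexokinase Hk2 were neither.

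**Figure D2:**
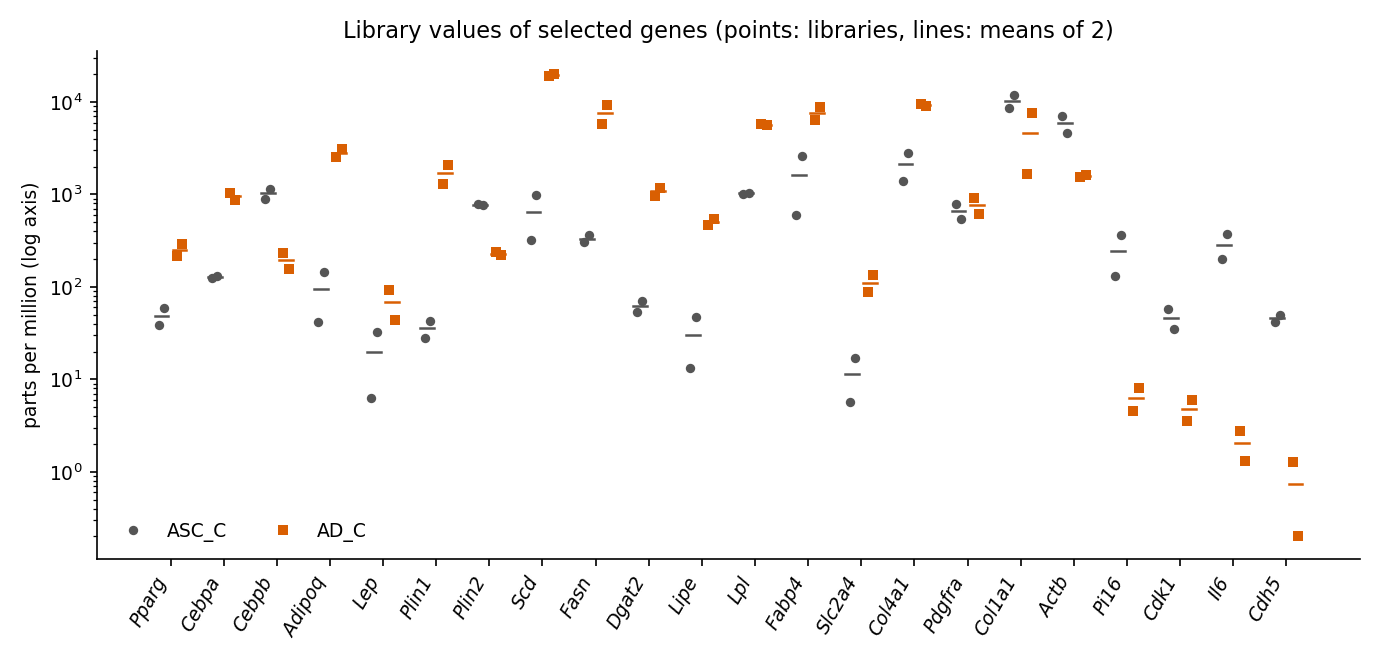
Level of 22 genes in each library in ppm on a log axis, with circles for the ASC_C libraries, squares for the AD_C libraries and lines for the means of 2. Cebpa, Scd and Plin1 sit higher in AD_C without overlap, Cebpb and Plin2 lower without overlap, and Pdgfra overlaps between the stages.

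The adipokines split evenly, with 5 of 17 higher, 5 lower and 7 neither. Adipoq, the insulin-sensitizing hormone adiponectin, was at 41.9 and 146 ppm in ASC_C and 2534 and 3116 ppm in AD_C (30.0-fold). Retn, resistin, was at 46.7 and 407 ppm and then 2338 and 3347 ppm (12.5-fold), and Cfd, the complement protease adipsin, at 215 and 1066 ppm and then 5700 and 4801 ppm (8.20-fold). ASC_C replicate 2 was the higher precursor library for each of them. Lep, leptin, was at 6.29 and 32.9 ppm and then 92.8 and 43.8 ppm, and since the nearest libraries were less than 2-fold apart it was neither. Rbp4 and Agt were higher (18.8- and 8.52-fold). The lower ones were Ccl2 (18.4-fold), Rarres2, the chemerin gene (4.08-fold), Sparcl1, Metrnl and Cpe. Serpina12, vaspin, had no reads in either ASC_C library and stood at 16.2 and 1.45 ppm in AD_C, below the filter on the mean.

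Known targets of the induction hormones were examined because AD_C cells had met dexamethasone and IBMX for 3 days, then 7 days without them. Of 20 genes of the glucocorticoid and cAMP list, 7 were higher, 2 lower and 11 neither. Fkbp5, the receptor chaperone that reports glucocorticoid action, was at 64.4 and 80.4 ppm in ASC_C and 403 and 377 ppm in AD_C (5.39-fold). Tsc22d3 was 5.18-fold higher, Per1 7.90-fold and Glul, glutamine synthetase, 5.58-fold. The cAMP-induced genes Nr4a1 and Pde4b were the lower members, and Sgk1, Pdk4 and Crem were neither. Many members of this list also answer to other signals.

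Carbon-handling pathways of mitochondria and peroxisomes were higher in part. In the list of the tricarboxylic acid cycle and pyruvate, 13 of 28 genes were higher and none lower (median log2 ratio 1.23). Pc, the pyruvate carboxylase that feeds citrate for lipogenesis, was at 46.1 and 109 ppm in ASC_C and 1307 and 1494 ppm in AD_C (18.1-fold), and the pyruvate dehydrogenase subunits Dlat and Pdha1 were 5.73- and 5.55-fold higher. In branched-chain amino acid catabolism 11 of 21 were higher and none lower (median 1.27), among them Bckdha (4.30-fold) and Aldh6a1 (13.0-fold). In the peroxisomal list 7 of 21 were higher and none lower, with Pex11a at 13.8-fold and Cat at 7.08-fold. In mitochondrial fatty acid oxidation 6 of 19 were higher and none lower, with Cpt1b at 6.4-fold from 6 and 24 reads in ASC_C and the liver form Cpt1a neither.

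The respiratory chain itself was divided by genome. All 13 protein genes of the mitochondrial genome were higher (median log2 ratio 2.67), and they took 1.34 and 0.534% of reads in ASC_C and 6.12 and 6.55% in AD_C. COX1 led AD_C at 25390 and 23810 ppm, rank 1 in both libraries. Of 46 nuclear genes of oxidative phosphorylation, 2 were higher, 2 lower and 42 neither, with a median log2 ratio of -0.18. That median was 0.08 without ASC_C replicate 1. Ndufs1 and Uqcrc2 were higher (2.82- and 2.77-fold) and Ndufs4 and Ndufa2 lower (3.02- and 2.64-fold). The labels name polyA RNA and also a ribosomal RNA depletion kit, and the part of the RNA selection in these values was not tested.

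Glycolysis and cholesterol synthesis had medians near that of all genes (-0.04). In glycolysis 5 of 21 were higher and 1 lower (median -0.17): the regulator Pfkfb3 was 14.8-fold higher, Ldhb 5.51-fold, and the lactate exporter Slc16a3 9.2-fold lower. In cholesterol synthesis and uptake 2 of 23 were higher and none lower (median -0.20), namely Dhcr7 (4.14-fold) and Nsdhl (2.73-fold).

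**Figure D3:**
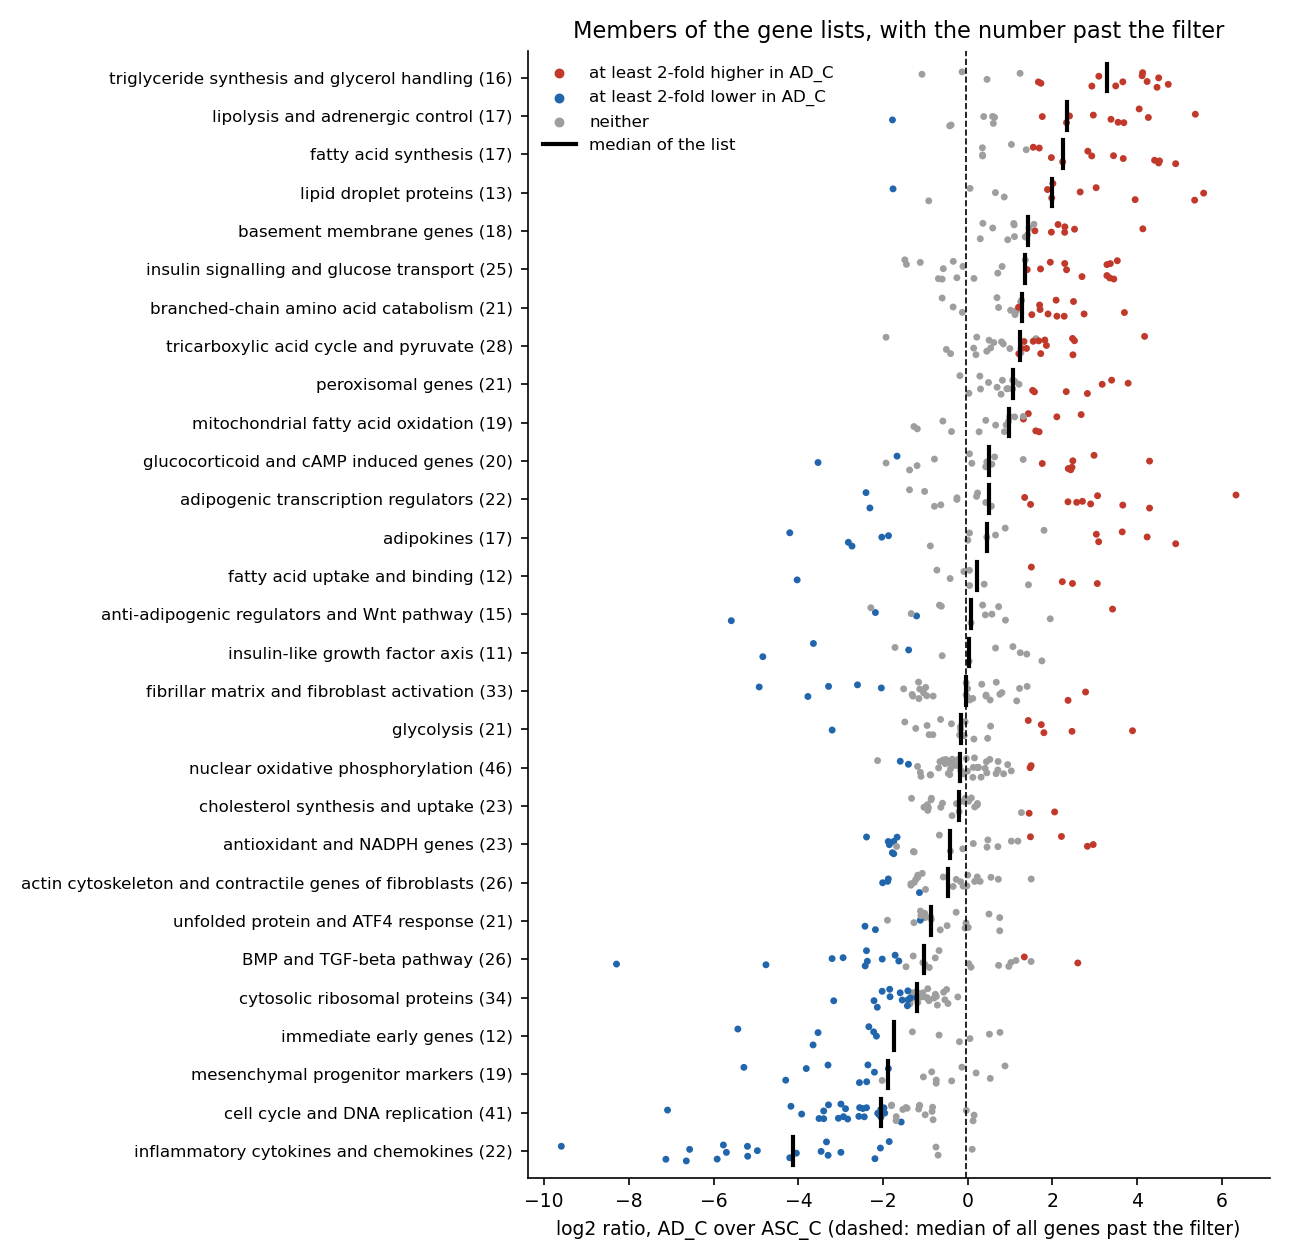
Log2 ratio of AD_C over ASC_C (x axis) for every member past the filter of each pathway list, with the number of such members in brackets. Red members were called higher in AD_C, blue lower and grey neither, the thick bar is the median of the list, and the dashed line is the median of all genes. The lists run from triglyceride synthesis (median 3.29) to inflammatory cytokines (median -4.12).

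Cell cycle and DNA replication genes were lower: of 41 past the filter 24 were lower and none higher, with a median log2 ratio of -2.05. Cdk1, the kinase that drives mitosis, was at 57.8 and 35.3 ppm in ASC_C and 3.53 and 6.00 ppm in AD_C (9.77-fold). Its cyclin Ccnb1 was 10.6-fold lower, the mitotic activator Cdc20 7.97-fold, Birc5 18.1-fold, Ube2c 15.2-fold and the replication clamp gene Pcna 4.14-fold. Mki67, the usual marker of cycling cells, was at 54.5 and 27.0 ppm in ASC_C and 6.12 and 19.2 ppm in AD_C. Its nearest libraries were less than 2-fold apart, so it was neither. The D-type cyclin gene Ccnd3, at 112 and 64.9 ppm and then 93.1 and 103 ppm, was also neither.

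Mitotic genes are known for CCAAT boxes, bound by NF-Y, and for a nearby cell cycle homology region (CHR, TTTGAA), where the DREAM complex represses them in resting cells. On either strand, CCAAT stood within 250 bases before 23 of 32 cell cycle genes with a promoter in RefSeq (71.9%), against 9416 of all 27457 start sites (34.3%) and 2821 of 7854 genes past the filter (35.9%). TTTGAA stood before 8 of the 32 (25%), against 16% of all start sites and 9.73% of genes past the filter. CCAAT was about as frequent in other lists, such as cholesterol synthesis (12 of 15) and the unfolded protein response (15 of 18), and it was before 33.7% of genes higher in AD_C and 36.6% of genes lower. The promoters of 3 lower genes are shown with the CHR in capitals, because each also holds CCAAT, or its complement ATTGG, in lower case in the same stretch.
Cdk1 (chr20:19265196-19265251, plus strand, 72 to 67 bases before the start): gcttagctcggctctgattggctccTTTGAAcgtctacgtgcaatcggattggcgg
Cdc20 (chr5:137255820-137255875, minus strand, 51 to 46 bases before the start): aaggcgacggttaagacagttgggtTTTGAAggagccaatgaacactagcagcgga
Cdca8 (chr5:142483263-142483318, minus strand, 94 to 89 bases before the start): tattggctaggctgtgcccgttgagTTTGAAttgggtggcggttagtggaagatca
In Cdca8 the last base of the CHR is the first base of an ATTGG. Cdca8, a subunit of the chromosomal passenger complex with Birc5, was at 35.6 and 40.3 ppm in ASC_C and 4.44 and 5.51 ppm in AD_C (7.64-fold lower). Ccnb1 had no TTTGAA in its window and had CCAAT at 2 places, so the lower mitotic genes did not share a single arrangement.

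Of 19 mesenchymal progenitor markers, 9 were lower, none higher and 10 neither (median log2 ratio -1.87). Pi16, a marker of the most immature fat progenitors, was at 131 and 362 ppm in ASC_C and 4.57 and 8.07 ppm in AD_C (39.0-fold lower), Cd34 was 19.7-fold lower, Cd44 4.61-fold and Vcam1 5.13-fold. Pdgfra, the receptor that defines fibroblast-like precursors, was at 788 and 549 ppm and then 912 and 620 ppm. Pdgfra, Pdgfrb, Thy1 and Prrx1 were neither, and each was detected at both stages. Dlk1, the preadipocyte factor that inhibits adipogenesis, had 3 and 9 reads in ASC_C and 11.2 and 11.6 ppm in AD_C, which made it the higher member of the anti-adipogenic list. It passed the filter on the mean only through AD_C, so its call adds no support. The same limit holds for other genes called higher with both ASC_C libraries under 5 ppm, such as Mlxipl, Fam13a, Tmem179 and Prodh1.

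Basement membrane and fibrillar matrix genes gave different counts. Of 18 basement membrane genes, 7 were higher and none lower (median 1.43), and the list accounted for 0.75 ± 0.131% of ASC_C reads and 2.43 ± 0.00151% of AD_C reads (SD, n = 2). Col4a1 was at 1417 and 2827 ppm and then 9420 and 9172 ppm (4.38-fold), and Col4a2 5.74-fold higher, so type IV collagen, the network around each fat cell, was among the leading genes by reads. Of 33 fibrillar matrix genes 2 were higher, 5 lower and 26 neither, where 10.4% of all genes were higher and 12.7% lower. The lower share was thus near that of all genes. Col6a3, which encodes the precursor of endotrophin, was 6.88-fold higher and the crosslinking enzyme Lox 5.16-fold. Eln, Mmp3, Timp1, Tnc and Col14a1 were lower, from 4.11- to 30.4-fold. Of 26 actin cytoskeleton genes 4 were lower, a share near the 12.7% of all genes, and none higher: Actb, at ranks 3 and 11 in ASC_C and 64 and 63 in AD_C (3.71-fold lower), Cnn2, Zyx and Actn1.

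Secreted growth factor signals and their antagonists followed. In the BMP and TGF-β list 10 of 26 were lower and 2 higher. Bmp4 had 20 and 154 reads in ASC_C (5.99 and 21.1 ppm) and 4 reads in each AD_C library, and the BMP antagonist Grem1 was 7.69-fold lower. The targets Id2, Id3 and Id4 and the ligand genes Tgfb1 and Inhba were lower, while the receptors Bmpr1a (6.05-fold) and Bmpr2 were higher. In the Wnt and anti-adipogenic list 3 of 15 were lower and 1 higher, where 12.7% of all genes were lower and 10.4% higher. The secreted Wnt modulator Sfrp2 was 47.9-fold lower, at 418 and 175 ppm and then 3.91 and 8.46 ppm. In the insulin-like growth factor axis 3 of 11 were lower, namely Igf2 (28.6-fold), Igfbp3 (12.5-fold) and Stc2 (2.63-fold), and Igf1 was neither.

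Inflammatory transcripts were lower in AD_C with the lowest median of all pathway lists (-4.12): 19 of 22 were lower and none higher, and they accounted for 1.02 ± 0.17% of ASC_C reads and 0.167 ± 0.0367% of AD_C reads (SD, n = 2). Il6 was at 200 and 371 ppm in ASC_C and 2.79 and 1.29 ppm in AD_C (140-fold lower). Ccl7, a monocyte chemokine, was 36.8-fold lower from 2321 and 1868 ppm, and Cxcl12, the stromal homing factor, 11-fold lower from 4342 and 2548 ppm. Csf2 had 111 and 648 reads in ASC_C and 2 and 14 in the much deeper AD_C libraries. Csf1, Icam1 and Tnfaip3 were neither. Of 12 immediate early genes 6 were lower and none higher, with Fosb at 43.1-fold and Fos at 4.46-fold.

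Stress and translation genes gave mixed counts. All 5 heat shock genes examined were lower, led by Hspa1a at 976 and 1740 ppm in ASC_C and 8.35 and 9.96 ppm in AD_C. Of 23 antioxidant genes 7 were lower and 4 higher: the NRF2 targets Hmox1, Nqo1, Gclm, Txnrd1 and Srxn1 were lower, and Cat, Mgst1, Sod3 and Gpx3 higher. Of 21 unfolded protein response genes 3 were lower, a share near the 12.7% of all genes, and none higher, and Hspa5, at 1710 and 1816 ppm and then 865 and 891 ppm, was just short of the rule. Of 34 cytosolic ribosomal protein genes 13 were lower and none higher (median -1.20), a list with many processed copies in the genome, whose shared reads were counted in a way that the sources used here do not give.

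Transcripts that mark other cell types were present in the ASC_C libraries. Of 12 endothelial markers 10 were lower in AD_C: Cdh5 was at 41.6 and 49.9 ppm in ASC_C and 1.26 and 0.203 ppm in AD_C, and Egfl7, which was higher, is the exception. Of 19 macrophage markers 10 were lower and none higher, with Mmp12 at 974 and 452 ppm and then 2.08 and 1.75 ppm. The resident macrophage genes Cd163 and Mrc1 were neither, and the macrophage list accounted for 0.12 ± 0.0133% of AD_C reads against 0.365 ± 0.0297% of ASC_C reads (SD, n = 2). In all, 5 of 6 class II histocompatibility genes were lower, with Cd74 at 502 and 703 ppm and then 3.36 and 3.24 ppm. Lower too were Csn1s1 and Cldn4, 2 of 3 epithelial genes past the filter. So were Cd8a and Hdc, the only lymphoid and the only mast cell gene past it. Csn1s1, Cldn4, Cd8a and Hdc passed the filter on the mean only through ASC_C, so their calls add no support. The same limit holds for other genes called lower with both AD_C libraries under 5 ppm, such as Cdh5, Mmp12, Il6, Bmp4 and Csf2. The part of these other cell types in the lower counts of cytokine, heat shock and immediate early genes was not tested. ASC_C replicate 2, in turn, held more adipocyte transcript than replicate 1, 146 against 41.9 ppm of Adipoq.

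Of the genes that define the stages, the fat cell genes Adipoq, Plin1, Cidec and Slc2a4 were higher in AD_C, but Lep was neither and Pck1 was below the filter. The progenitor gene Pi16 was lower, while Pdgfra and Thy1 did not set ASC_C apart from AD_C. Markers of skeletal muscle, Schwann cells and bone or cartilage gave 1, 2 and 1 genes past the filter. The Schwann genes S100b and Mbp were both higher, at 27.6 and 82.6 ppm and then 361 and 321 ppm for S100b, which fat cells also express. Of 7 smooth muscle and pericyte genes Cspg4 was higher and none lower.

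The ratio also moved with the length of the gene. Over the 9444 genes with a span in RefSeq (89.4% of those past the filter), the median log2 ratio was -0.49 in the fifth with the shortest spans (median 5022 bases), then -0.25, -0.02 and 0.19, and 0.45 in the fifth with the longest (median 119957 bases). The part of span in the counts above was not tested.

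Beyond the lists, the genes with the largest ratios among called genes of at least 20 ppm included several without a classical place in adipogenesis. Fam13a had 8 and 10 reads in ASC_C (2.40 and 1.37 ppm) and reached 180 and 216 ppm in AD_C, which took it from ranks 11473 and 12502 to 908 and 685. Tmem179 was at 2.99 and 3.29 ppm and then 138 and 145 ppm (45.0-fold). Prodh1, proline dehydrogenase, had 8 and 7 reads in ASC_C and stood at 62.0 and 74.2 ppm in AD_C. The transporter gene Slc16a14, Clmn and Gldn had 1 to 4 reads in at least 1 ASC_C library, and Gldn differed between the AD_C libraries, at 24.1 and 279 ppm. Mlxipl, Plin1, Plin4 and Adora1 were also among the 12 with the largest ratios.

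The 12 on the lower side included chemokine, selectin and histocompatibility genes. The chemokine gene Ccl17 had 297 and 713 reads in ASC_C (89.0 and 97.8 ppm) and 0 and 5 in AD_C, and Ccl22 had 344 and 833 and then 13 and 10. The selectins Sele and Selp had 164 and 795, and 268 and 567, reads in ASC_C and 5 to 15 in AD_C. Rbp7, a retinoid carrier of capillary endothelium, had 83 and 619 reads and then 1 and 2, and Dnase1l3 had 119 and 500 and then 3 and 2. Ccl12, Ccl9, Csf2, Mmp12, RT1-Db1 and Ocstamp complete the 12, and in AD_C each of them except Mmp12 was under 1 ppm in both libraries. All 12 passed the filter on the mean only through ASC_C, so their calls add no support.

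Some members could be followed at 1 stage only. The AD table listed 4218 genes that the ASC table did not, and the shared genes held 99.84 and 99.83% of AD_C reads. Of the unshared ones 33 had a mean of at least 5 ppm in AD_C, led by Cnnm1 at 46.1 and 7.86 ppm. They included the uncoupling protein gene Ucp3 at 10.5 and 10.7 ppm and the melanocortin receptor gene Mc2r at 11.4 and 8.3 ppm. Below or near that level were the batokine gene Nrg4 at 3.94 and 6.82 ppm, and Ppargc1a at 0.632 and 0.423 ppm. The ASC table listed 277 genes that the AD table did not, among them Myoc and the mast cell protease gene Cma1. Of 823 symbols written in the lists, 728 were in both tables, of which 671 passed the filter, 23 were in AD only, 11 in ASC only and 61 were not analysed here, including Cd36, Pnpla2, Tnf and Pecam1.

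Whether the AD to ASC difference was the same after the HFS diet was tested across the 8 libraries, on the assumption that any shift between the tables was the same for both diets. In this comparison, higher or lower in HFS refers to the AD to ASC difference and not to the level of a gene. With limma-trend on log2(ppm + 1) over 8 libraries and Benjamini-Hochberg adjusted p under 0.05, 2124 of 10629 genes passed (20%): 1509 were higher in HFS (14.2%) and 615 lower (5.79%), and 3931 had an unadjusted p under 0.05. Scaling by the median of ratios gave 950 higher and 1027 lower, so the balance of directions differed with the scaling. The count was 3359 without ASC_HFS replicate 1, 1159 and 1293 without ASC_C replicate 1 and AD_C replicate 2, 576 without AD_C replicate 1, and 390 and 425 without AD_HFS replicates 1 and 2. The AD_HFS libraries resembled each other more than other pairs at their depth, with a mean chi-square per gene of 8.14 against 371 for the AD_C pair, and with that pair averaged as 1 library 419 genes passed. The p-values measure the spread between these samples, which may be technical.

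Several central fat cell genes gave no call. The HFS minus C difference on the log2(ppm + 1) scale was 0.12 for Pparg (SE 0.356, limma adjusted p = 0.836), -0.49 for Cebpa (adjusted p = 0.251), -0.12 for Plin1 (0.856) and -1.90 for Adipoq (0.0740), which does not show that they are equal. Other genes of the fat cell lists were called, as were 20% of all genes tested. In the lipid droplet list Plin2, Plin4 and Cavin1 were lower in HFS and Bscl2 higher (4 of 13). Among the adipogenic regulators Klf15 and Zfp467 were higher and Klf9 and Klf4 lower (4 of 22), a share near that of all genes. The number of these calls varied when single libraries were left out. In fatty acid synthesis 6 of 17 were higher and none lower (1 to 6 higher with single libraries left out): Scd2, Elovl6, Slc25a1, Acss2, Fads1 and Fads2. Of the 1091 genes higher in AD_C that were tested, 58 were higher in HFS and 88 lower, and of 1295 genes lower in AD_C 375 were higher in HFS and 119 lower. Both sets share the AD_C and ASC_C libraries with this contrast, so the counts are given side by side only.

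Where 14.2% of all genes were higher in HFS, cell cycle genes held the most calls among the lists, though not the largest share. Of 40 tested 30 were higher in HFS, from 13 to 31 with single libraries left out. Mki67 was at 54.5 and 27.0 ppm in ASC_C and 6.12 and 19.2 ppm in AD_C, but at 6.16 and 7.06 ppm in ASC_HFS and 34.5 and 33.1 ppm in AD_HFS, so the order of the stages was reversed (difference 3.91, SE 0.681, limma adjusted p = 0.00936). In cholesterol synthesis 17 of 22 were higher in HFS (9 to 18 with single libraries left out): Dhcr7 was 24.6-fold higher in AD_HFS than in ASC_HFS against 4.14-fold under the control diet. The ASC_HFS level of Dhcr7 was 8.89 and 6.05 ppm and its AD_HFS level 185 and 183 ppm, the latter near the 171 and 220 ppm of AD_C, and the call was lost in 4 of 8 fits with a library left out (either AD_HFS, AD_C replicate 1 or ASC_HFS replicate 2). Glycolysis had 13 of 21 higher (4 to 13, and 10 with 2 lower under the median of ratios), nuclear oxidative phosphorylation 19 of 46 (2 to 28, and 6 under the median of ratios) and actin cytoskeleton 13 of 27 (5 to 15). Of 19 macrophage markers 10 were higher in HFS (4 to 12) and none lower, and that list accounted for 0.546 and 0.543% of AD_HFS reads against 0.111 and 0.13% of AD_C reads. The part of macrophage transcripts in the diet difference was not tested. Glycolysis took 0.529 and 0.405% of reads in ASC_HFS against 1.286 and 1.203% in ASC_C. In AD_HFS it took 1.112 and 1.095%, between the 1.064 and 1.189% of AD_C. Nuclear oxidative phosphorylation took 0.518 and 0.406% in ASC_HFS against 0.882 and 0.895% in ASC_C. In AD_HFS it took 0.901 and 0.886%, between the 0.841 and 0.919% of AD_C. For both lists the share thus differed between diets in precursors, not in adipocytes.

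In the other direction, the AD to ASC difference was lower in HFS for 17 of 25 inflammatory genes and higher for 2. It was lower for 11 of 13 immediate early genes and higher for none. With a library left out, the inflammatory lower count was smaller in every fit and the immediate early one in some fits. The inflammatory list took 1.56 and 1.91% of reads in ASC_HFS against 1.14 and 0.898% in ASC_C, and 0.104 and 0.105% in AD_HFS against 0.193 and 0.141% in AD_C. Immediate early genes took 0.359 and 0.458% in ASC_HFS against 0.13 and 0.166% in ASC_C. Cxcl2 was at 14.1 and 21.0 ppm in ASC_C and 634 and 813 ppm in ASC_HFS, and under 1 ppm in all AD libraries (difference -5.08, SE 0.412, limma adjusted p = 0.00232). Insr, 9.75-fold higher in AD_C than ASC_C, was 2.41-fold higher under HFS (difference -1.79, limma adjusted p = 0.0170), with ASC_HFS at 22.4 and 16.1 ppm, whereas AD_HFS, at 47.8 and 45.3 ppm, lay between the AD_C libraries. Its call was lost without AD_C replicate 2 and without either AD_HFS library. Plin4 was 11.9-fold higher under HFS against 41.0-fold, and its call was lost without either AD_HFS library.

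**Figure D4:**
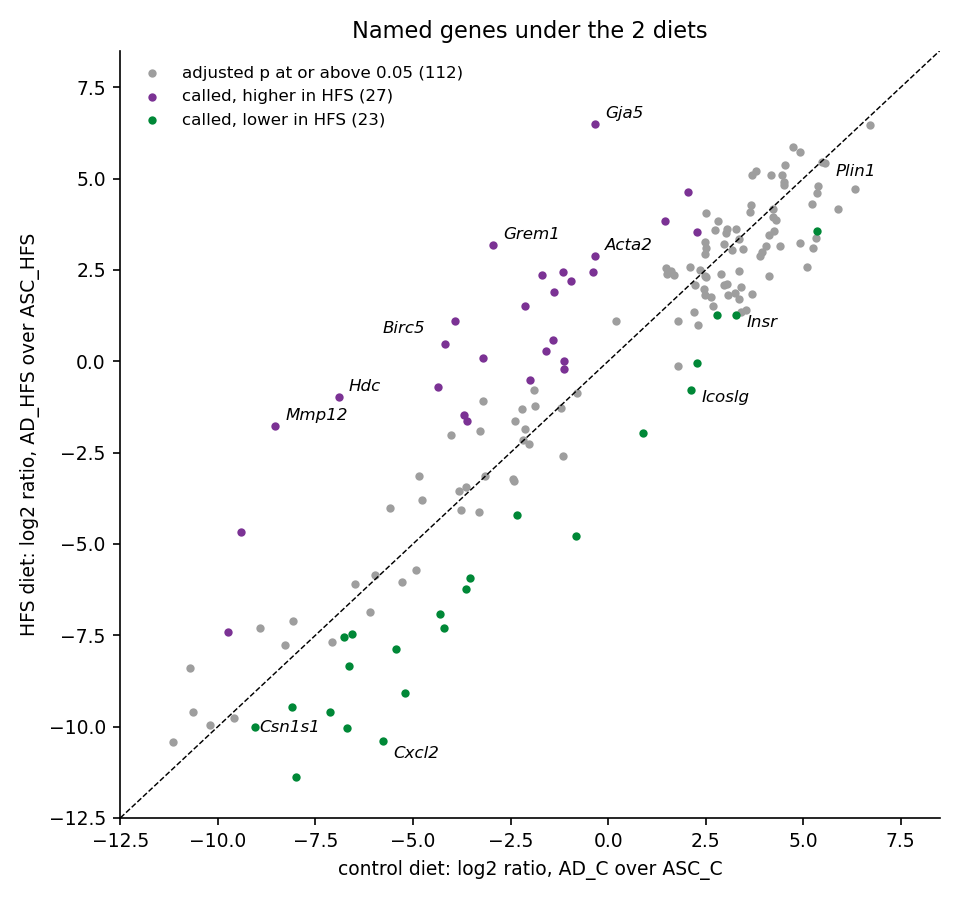
Log2 ratio of adipocytes over precursors under the control diet (x axis) and the HFS diet (y axis) for the 162 named genes that were tested, with the dashed line at equal ratios. Purple genes had an AD to ASC difference called higher in HFS (27) and green ones a lower one (23), by limma-trend at adjusted p under 0.05. Gja5 and Mmp12 lie far above the line and Cxcl2 far below it.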

How the data were processed

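RNA of all 8 samples was read as 50-base paired ends, and reads were checked, aligned, counted and transformed by the authors with FastQC, STAR, featureCounts and DESeq2 on mRatBN7.2 (rn7), per the submitters' processing notes, which give no versions. The deposited signal values of each table are 2 raised to the authors' variance-stabilized values, as the values themselves show, and ASC and AD were transformed in separate tables. The transform was inverted for each library and gave whole reads for 100% of values (tolerance 1e-06). How the counting treated strand and reads with several matches is not given in the sources used here, so near-identical genes (ribosomal proteins, class II histocompatibility genes, actins) are uncertain. The labels name both polyA RNA and a ribosomal RNA depletion kit.

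Reads were scaled to ppm over the 14018 shared genes, of which 12187 have a symbol. Library depths were 992618 to 7290961 reads in ASC and 76083827 to 119555051 in AD, so low genes are less precise in ASC. The rule for AD_C against ASC_C is described with the results and uses no test. The difference between diets was fitted by limma 3.58.1 (R 4.3.3) with a mean-variance trend on log2(ppm + 1), for genes with a mean of at least 5 ppm over 8 libraries, with Benjamini-Hochberg adjustment. Scaling and tables used pandas 2.3.3 and numpy 2.4.6 under Python 3.11.15, figures used matplotlib 3.10.9, and the steps were tested on simulated data. Promoter windows are from RefSeq (GRCr8), matched by symbol, with no coordinates taken from other builds.

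Genes named are the 12 with the largest ratio per direction among called genes of at least 20 ppm, up to 4 members of each list, a fixed set of fat cell genes, and the 5 smallest p per direction between diets, with other list members beside the count of their list. Some genes that the rule names are not reported here. The comparison and the lists were chosen with earlier results of these data known. Alternatives covered the fold, filter, floor, scaling, pseudocount, thinning to the shallowest library, deposited values, limma-voom, replicate block and leaving out each library.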

Additional observations from a re-analysis of the deposited data

Results flagged for a closer look

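The AD to ASC difference of 50 of the 164 named genes differed between the diets by limma-trend (adjusted p under 0.05), where 20% of all genes tested did. The named genes include the 5 with the smallest p per direction in this same test, so their share cannot be set against that of all genes. The values are the AD to ASC difference in HFS minus that in C on the log2(ppm + 1) scale, from 2 libraries a group. Higher or lower in HFS refers to this difference and not to the level of a gene. The direction of each was the same in all 8 fits that left out a library, 26 were called in all 8, and 30 were called with the AD_HFS pair averaged as 1 library.

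Called in all 8 of those fits and higher in HFS were Grem1 6.77, Mmp12 6.58, Gja5 6.46, Hdc 5.64, Ccl12 5.27, Birc5 4.56, Ube2c 4.33, Mki67 3.91, Spp1 3.58, Pla2g7 3.54, Acta2 3.37, Stc2 3.29, Trem2 3.25, Slc16a3 3.24, Mvd 3.06, Nsdhl 2.30, Laptm5 2.12 and Ndufa2 1.97. Gja5 encodes a gap junction protein and Grem1 a BMP antagonist, Mki67, Birc5 and Ube2c belong to the cell cycle, and Trem2, Spp1 and Mmp12 are expressed by macrophages. The mast cell list, in which only Hdc was tested, took 0.0273 and 0.0183% of reads in ASC_C. It took 0.00121 and 0.000504% in ASC_HFS and less in the AD libraries. Hdc thus passed the filter on the mean only through ASC_C, so its call follows from that level and adds no support.

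Called in all 8 and lower in HFS were Fosl1 -1.87, Selp -2.06, Dpep1 -2.82, Icoslg -2.86, Csn1s1 -3.65, Pck1 -3.74, Cxcl1 -3.89 and Cxcl2 -5.08. Pck1 was under 5 ppm in all libraries except those of ASC_HFS (31.8 and 45.4 ppm) and passed the filter on the mean only through that group, so its call had to follow from that level and adds no support. Cxcl1 and Cxcl2 are neutrophil chemokines, and the level of Cxcl2 was higher in ASC_HFS than in ASC_C, as given above.

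Higher in HFS but lost in at least 1 of the fits were Thy1 2.67, Dhcr7 2.34, Ndufs4 1.91, Tyrobp 1.90, Ccl22 1.86, Cnn2 1.51, Oxct1 1.25, Pdia3 1.12 and Actn1 0.93. Dhcr7 is an enzyme of cholesterol synthesis, as are Nsdhl and Mvd above.

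Lower in HFS but lost in at least 1 of the fits were Cxcl3 -1.08, Col6a3 -1.55, Lif -1.66, Plin4 -1.67, Sox18 -1.69, Insr -1.79, Nr4a1 -2.12, Fosb -2.25, Col4a5 -2.25, Il6 -2.27, Ier3 -2.30, Cd34 -2.33, RT1-Db1 -2.33, Cldn4 -2.71 and Ccl2 -2.84. Among these the insulin receptor gene Insr and the perilipin gene Plin4 were higher in adipocytes than in precursors under both diets.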

How the results depend on the processing

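The main counts were 1100 genes higher and 1342 lower in AD_C. A fold of 1.5 gave 1905 and 2159, a fold of 4 gave 297 and 487, a filter at 20 ppm gave 721 and 838, and no filter gave 2549 lower. The deposited values without the inversion gave 448 and 4859, since each table then keeps its own transform. Models with a p-value, which test tables and stages together, called 1893 and 2206 (limma-trend), 2120 lower (limma-voom) and 2021 lower (limma-voom with the replicate block). Leaving out 1 library gave 1305 to 1858 higher and 1632 to 1740 lower, the most higher genes without ASC_C replicate 1. Taking ratios within same-numbered pairs as a replicate block gave 1276 and 1484. The numbers do not pair the libraries by any label, and the differences between replicates of ASC_C and AD_C had a correlation of -0.05 over 10570 genes.

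For the difference between diets (2124 genes) the replicate block gave 1744, limma-voom 1594, and leaving out 1 library 390 to 3359. Averaging the AD_HFS pair, chosen after seeing the data, gave 419. Of 1968 values of named genes under alternatives, 1854 moved by less than the replicate spread and 114 moved by more. Among genes called higher or lower 0 changed sign, and sign changes of the other named genes were not counted. Of 530 list medians 27 changed sign, in 9 lists, among them fibrillar matrix, the insulin-like growth factor axis and the Wnt list. Precursor depth limits the low genes: 3 reads were 0.898 and 0.412 ppm in ASC_C.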
